A study of Mus musculus with 7 samples.

Results

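The proteasome genes were taken as every array probe whose annotated gene symbol begins with Psma, Psmb, Psmc, Psmd, Psme, Psmf or Psmg followed by a digit, which gave 49 of 19057 genes named on the array, read by 86 of its 45281 probes. They were compared in whole liver of C57BL/6 mice 12 h after partial hepatectomy (PHx), an operation that removes part of the liver and starts its regrowth. The samples were 4 livers with the genotype LTBR KO (KO), which lack the lymphotoxin beta receptor, and they were set against 3 WT livers, 1 single-colour Illumina bead array each. Both groups had undergone PHx and no liver without it was analysed here, so effects of genotype present beforehand and effects on regrowth cannot be told apart. The age and sex of the mice and the construction of the KO allele were not given in the sources used here. Nothing in the labels ties each array to its own mouse, and the spread behind the p-values may be in part technical.

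The proteasome is the chamber in which cells degrade proteins marked with ubiquitin. Its 20S core is a stack of alpha and beta rings with the cleaving sites on the inner face of the beta rings, and its 19S cap binds the ubiquitin chain, removes it, unfolds the substrate with a ring of ATPases and threads it into the core. Interferon and tumour necrosis factor can induce alternative catalytic subunits, Psmb8, Psmb9 and Psmb10, which take the places of Psmb5, Psmb6 and Psmb7 in the immunoproteasome and shape the peptides shown on MHC class I. Leukocytes carry the immunoproteasome without induction, while hepatocytes carry mainly the constitutive form.

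The stretches upstream of the transcript start are shown for catalytic subunits of both forms, because these are the pairs set side by side in the results. They come from RefSeq on GRCm38.p6, whose promoter windows covered 41 of the 49 genes, and run 5′ to 3′ on the strand of the gene. Capitals mark the letters TGACNNNGC, a core of the antioxidant response element to which NRF1 and NRF2 bind, and the stretches of Psmb8 and Psmb9 hold none of the motifs reported here. The Psmb5 stretch is chr14:54617996-54618095 (minus strand), that of Psmb8 chr17:34198095-34198194 (plus), that of Psmb6 chr11:70525257-70525356 (plus), and that of Psmb9 chr17:34187331-34187555 (minus). The last fills the 225 bases between the starts of Psmb9 and Tap1, a subunit of the peptide transporter of MHC class I loading, which are transcribed away from each other.
Psmb5: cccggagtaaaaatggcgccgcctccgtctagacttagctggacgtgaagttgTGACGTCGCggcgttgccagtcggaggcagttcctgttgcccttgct
Psmb8: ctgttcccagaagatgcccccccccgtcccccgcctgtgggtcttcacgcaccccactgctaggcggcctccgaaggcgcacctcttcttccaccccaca
Psmb6: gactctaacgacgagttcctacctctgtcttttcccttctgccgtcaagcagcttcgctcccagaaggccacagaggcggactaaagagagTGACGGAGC
Psmb9: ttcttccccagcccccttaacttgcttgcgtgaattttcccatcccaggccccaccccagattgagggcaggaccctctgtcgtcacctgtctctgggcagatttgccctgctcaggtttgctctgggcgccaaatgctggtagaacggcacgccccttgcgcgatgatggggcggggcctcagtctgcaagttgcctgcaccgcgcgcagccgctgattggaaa

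Searched on both strands of the whole 300-base windows, TGACNNNGC was present in 5 of 31 constitutive proteasome genes with a window (16.1%), against 14% of all 27025 genes with one. It stood in the windows of Psmb5, Psmb6, Psmc6, Psmd9 and Psmd12. The interferon-stimulated response element was searched as GAAA repeated after a gap of 2 bases. It was present in 4 of 31 (12.9%) against 3.99% of all genes, and in 1 of 4 activator genes, Psme1. The NF-kB consensus was present in 5 of 31 (16.1%) against 9.55%. It was also in 1 of 4 activator genes, Psme4, whose window held TGACNNNGC too. None of these 3 motifs, as searched, was present in the windows of the 3 immunoproteasome genes. With only 3 windows and the shares given for all genes, this absence says nothing about the control of those genes. The motifs can overlap one another, and a match describes letters only.

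Each array had a median intensity of 91.09 and a range of 72.56 to 30878, and a probe counted as measured where it exceeded a background bound of 93.56 on at least 3 arrays. The number of arrays limits the precision, with a median standard error (SE) of 0.19 for a log2 difference. All 10 hepatocyte markers were measured, and the secreted protein genes Ttr and Apoa1 had log2 intensities of 14.44 or more on every array, though the albumin probe read only 6.11 to 7.29 in KO samples and 5.92 to 7.76 in WT samples. Of the 10 genes, 9 had KO means below WT, with a median difference of -0.15, beside 0.03 over all features. Their smallest adjusted p was 0.513 (limma). The part of these markers in the proteasome values was not tested. The targeted gene Ltbr was lower in every KO sample, at 5.86, 6.23, 6.08 and 5.61 log2 units in KO samples 1 to 4 against 6.63, 7.04 and 7.28 in WT samples 1 to 3 (KO minus WT -1.04, SE 0.20, adjusted p = 0.0878).

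Of the 49 genes, 42 had a measured probe. No probe of Psma1, Psma3, Psma6, Psmd3, Psmg4, Psmb11 or Psmc3ip passed the background filter. Psma1, Psma3 and Psma6 are alpha-ring subunits and Psmd3 a subunit of the 19S lid, so the lack of signal at these probes says nothing about the complex. Psmb11 belongs to the thymus proteasome, and Psmc3ip and Psme3ip1 match the symbol rule without being subunits, the first acting in meiotic recombination and the second binding Psme3. Each gene is given by its brightest measured probe, on the log2 scale after background correction.

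No proteasome gene differed between KO and WT livers at an adjusted p under 0.05 (limma, Benjamini-Hochberg over 13193 genes or unnamed probes), where 9 of the 13193 did (0.0682%), 0.00758% of all features higher and 0.0606% lower in KO livers. At an unadjusted p under 0.05, 1 of the 42 proteasome genes was higher and 3 were lower in KO livers, whereas 14.8% of all features passed that level, 8.25% higher and 6.52% lower. The KO and WT values did not overlap for 5 of the 42, 3 higher and 2 lower in KO livers, against 13.1% of all features, 7.62% higher and 5.48% lower. Of the 42 differences, 19 lay above 0 and 23 below, with a median of -0.03 and a range of -0.56 to 0.49, beside a median of 0.03 over all features. The 95% interval of the difference stayed within 2-fold in either direction for 41 genes and within 1.5-fold for 21, so for the other genes a 1.5-fold difference still lay inside it. Psmb6 was the exception to the 2-fold range, with an interval of -1.02 to 0.17.

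**Figure D1:**
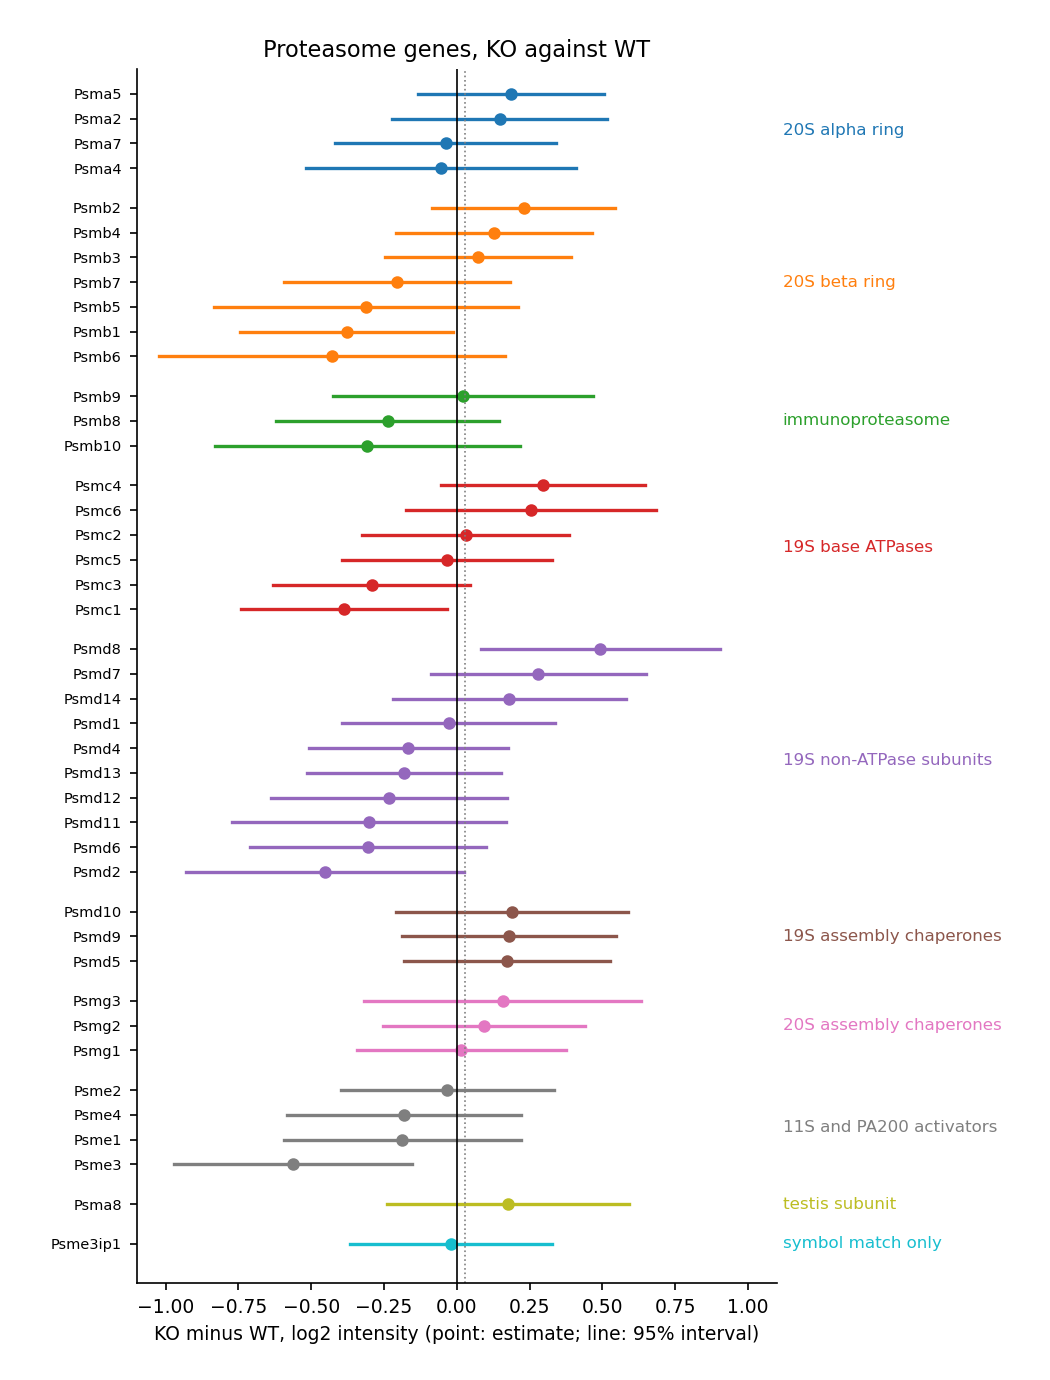
KO minus WT difference in log2 intensity of each measured proteasome gene (point) with its 95% interval from limma (line), grouped by role, and the median of all features (dotted line). Estimates run from -0.56 (Psme3) to 0.49 (Psmd8), and most intervals cross 0.

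The 3 inducible catalytic subunits of the immunoproteasome did not pass the test. Psmb8, which supplies the chymotrypsin-like site of the immunoproteasome, had log2 intensities of 5.61, 5.65, 5.23 and 5.82 in KO samples 1 to 4, against 5.85, 5.91 and 5.69 in WT samples 1 to 3. Only KO sample 4 reached into the WT range, yet the difference of -0.24 (95% interval -0.62 to 0.15) had an adjusted p of 0.578. With 1 sample left out it ran from -0.32 (without KO sample 4) to -0.12 (without KO sample 3). Its other measured probe differed by 0.03 (SE 0.18). The brighter probe was itself dim, at 99.27 to 121.84 before background correction, beside the bound of 93.56. Without that correction the difference at the brighter probe was -0.10, and with an offset of 50 it was -0.14.

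Psmb9, which replaces the caspase-like subunit, had values of 6.35, 6.71, 6.08 and 6.79 in KO samples and 6.54, 6.21 and 6.64 in WT samples. The groups overlapped throughout, with a difference of 0.02 (95% interval -0.43 to 0.47, adjusted p = 0.973). Tap1, which starts on the other side of the sequence printed above, differed by -0.30 at a dim probe (SE 0.16, adjusted p = 0.416).

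Psmb10, which replaces the trypsin-like subunit, had values of 7.44, 7.89, 7.59 and 7.99 in KO samples and 8.35, 8.32 and 7.43 in WT samples. WT samples 1 and 2 exceeded every KO sample, but WT sample 3 was lower than all of them. The difference was -0.31 (95% interval -0.83 to 0.22, adjusted p = 0.603). With 1 sample left out it ran from -0.61 (without WT sample 3) to -0.15 (without WT sample 1), and it was -0.16 without WT sample 2. The other probe of Psmb10 was also lowest among the WT samples in WT sample 3 (7.44, against 8.21 and 8.07) and differed by -0.46 (SE 0.20, adjusted p = 0.325).

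Markers of leukocytes varied between the same samples. The summed linear intensity of 5 of 6 pan-leukocyte markers ran from 1183 to 1712 in KO samples and from 746.3 to 1674 in WT samples, and was lowest in WT sample 3. That of 10 of 12 Kupffer cell and macrophage markers ran from 2521 to 4153 in KO samples and from 1835 to 2448 in WT samples, again lowest in WT sample 3. These KO and WT sums did not overlap, and 9 of the 10 genes had KO means above WT (median difference 0.39). For 3 of them all KO values were higher, against 7.62% of all features. They were Marco (1.71, SE 0.35, adjusted p = 0.0878), Vsig4 (0.75, SE 0.24) and Cd163 (0.52, SE 0.18), and none passed an adjusted p under 0.05. The summed intensity of 4 of 5 neutrophil markers ran from 424 to 976.7 in KO samples and from 312.3 to 1365 in WT samples. Lymphocytes and dendritic cells were hardly represented, with 2 of 8 T and NK cell markers, 1 of 4 B cell markers and 1 of 5 dendritic cell markers measured. No probe of Ptprc, Cd3g, Cd8a, Ms4a1, Flt3 or Itgax passed the background filter, and genes of these lists without a named probe were not analysed here. In whole tissue, fewer cells of a type and less RNA per cell cannot be told apart, and the part of these markers in the immunoproteasome values was not tested.

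**Figure D2:**
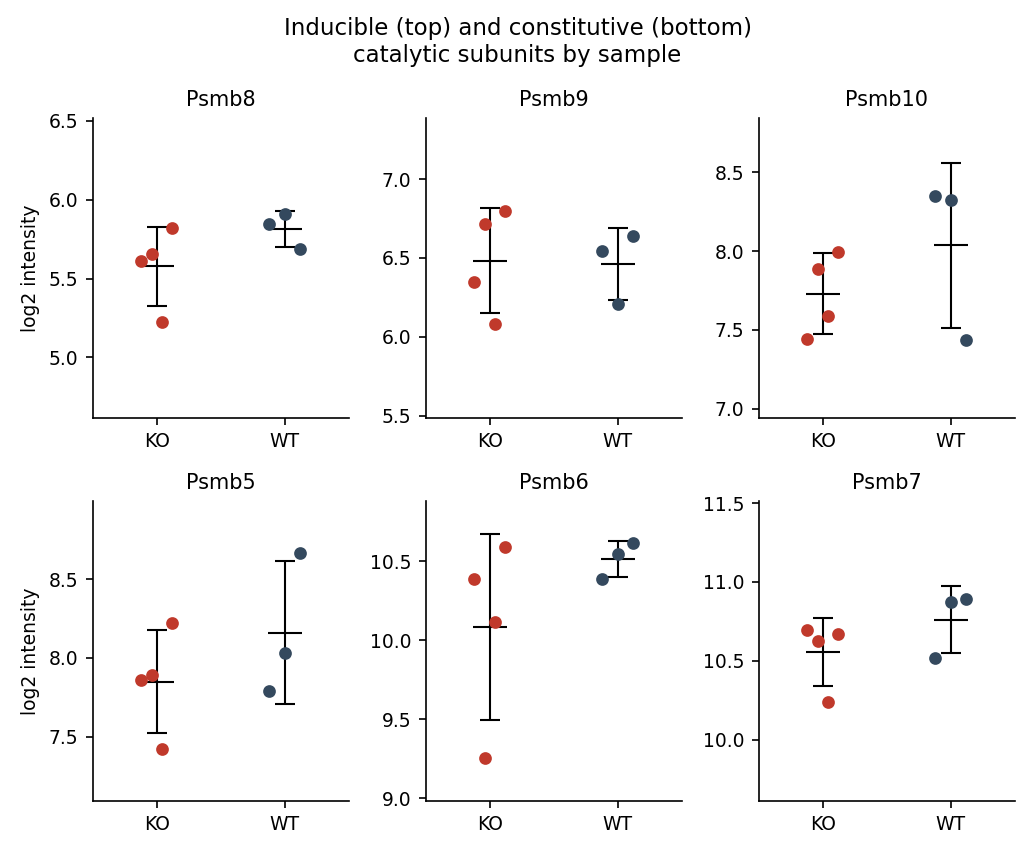
Log2 intensity of the inducible subunits Psmb8, Psmb9 and Psmb10 (top) and of their constitutive counterparts Psmb5, Psmb6 and Psmb7 (bottom), with KO samples (red, n = 4) left of WT samples (dark blue, n = 3), and bars for mean ± SD. Every panel spans the same number of log2 units, and KO and WT values overlap in each.

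The constitutive counterparts had lower KO means without passing the test. Psmb5, the chymotrypsin-like subunit and the main target of the drug bortezomib, had values of 7.86, 7.89, 7.42 and 8.22 in KO samples and 7.79, 8.03 and 8.67 in WT samples. It was highest in WT sample 3 and lowest in KO sample 3. Its difference was -0.31 (SE 0.24, adjusted p = 0.59), and with 1 sample left out it ran from -0.50 (without WT sample 1) to -0.06 (without WT sample 3).

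Psmb6, the caspase-like subunit, had values of 10.39, 9.25, 10.12 and 10.59 in KO samples and 10.39, 10.55 and 10.61 in WT samples. KO sample 2 stood lowest at this probe, and also at the other one (9.45, with its fellow KO samples at 9.88 to 10.32). The difference was -0.43 (SE 0.27, adjusted p = 0.505), and with 1 sample left out it ran from -0.60 (without KO sample 4) to -0.15 (without KO sample 2). Psmb7, the trypsin-like subunit, had values of 10.70, 10.62, 10.24 and 10.67 in KO samples and 10.52, 10.87 and 10.89 in WT samples, a difference of -0.20 (SE 0.18, adjusted p = 0.646) that ran from -0.33 (without WT sample 1) to -0.098 (without KO sample 3). Its 3 other probes lay between -0.26 and -0.11.

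The log2 ratio of the inducible to the constitutive subunit of a pair gave no common direction. The KO minus WT difference of that ratio was 0.07 for Psmb8 over Psmb5, 0.45 for Psmb9 over Psmb6 and -0.10 for Psmb10 over Psmb7, with overlapping groups in each. The value for Psmb9 over Psmb6 rested on KO sample 2, where the ratio was 1.52 above the WT mean, while KO samples 1, 3 and 4 lay 0.01 to 0.26 above it.

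The remaining beta-ring subunits have no cleaving site of their own. Psmb1 had values of 9.33, 9.44, 9.18 and 9.54 in KO samples and 9.51, 9.82 and 9.92 in WT samples, a difference of -0.38 (SE 0.17, unadjusted p = 0.0436, adjusted p = 0.32). KO sample 4 overlapped WT sample 1. Psmb2 had values of 11.07, 11.14, 11.14 and 11.24 in KO samples and 10.93, 10.90 and 10.91 in WT samples. All KO samples were higher, by a mean of 0.23 (SE 0.14, adjusted p = 0.497), but its other measured probe differed by -0.02 (SE 0.16). Psmb3 and Psmb4 differed by 0.07 (SE 0.15) and 0.13 (SE 0.15).

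Of the alpha ring, which gates entry to the core, 4 of 7 subunits were measured. Psma5 had values of 11.35, 11.27, 11.40 and 11.37 in KO samples and 11.06, 11.16 and 11.27 in WT samples. The groups just failed to touch, with a difference of 0.19 (SE 0.15, adjusted p = 0.606). Psma2 differed by 0.15 (SE 0.17), Psma4 by -0.05 (SE 0.21) and Psma7 by -0.04 (SE 0.17).

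KO sample 3 was low for several genes of the 20S core, and for some other lists but not all. Its median deviation from the mean of each gene was -0.29 for the 4 alpha-ring genes and -0.15 for the 7 constitutive beta-ring genes, beside 0.02 over all features. It was -0.40 for the 3 immunoproteasome genes, -0.25 for 10 genes of peptide supply to MHC class I and -0.15 for the 10 hepatocyte markers. It lay above 0 for 5 pan-leukocyte markers (0.25), 14 interferon response genes (0.16) and 4 sinusoidal endothelial markers (0.12). For the 6 ATPases of the 19S base it was 0.0064. The part of these lists in the values of the core was not tested. It was the lowest of the 7 samples for Psma4, Psma7, Psmb1, Psmb5 and Psmb7. WT sample 3 was highest for 4 of the 7 beta-ring genes, and its median deviation there was 0.25. Over all 42 genes KO sample 3 was lowest for 26.2%, against 18% of all features, and highest for 16.7%, against 22%. WT sample 3 was highest for 28.6%, against 14.2%, and lowest for 16.7%, against 16.5%. The median deviation of the 33 constitutive genes ranged only from -0.05 to 0.03 over KO samples and from -0.06 to 0.04 over WT samples.

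**Figure D3:**
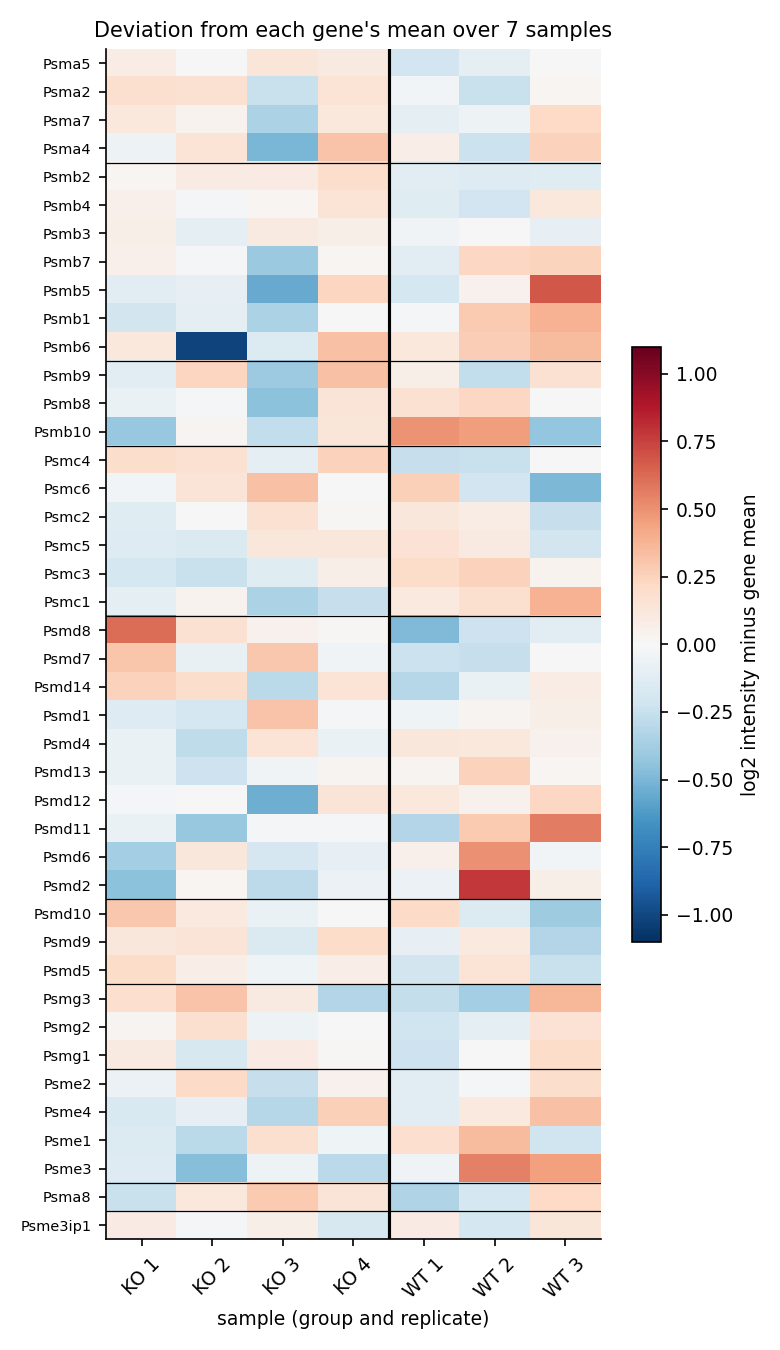
Deviation of each measured proteasome gene from its mean over the 7 samples, in log2 units, with KO samples left of WT samples and horizontal lines between the groups by role. KO sample 3 is low for Psma2, Psma4 and Psma7 of the alpha ring, and the deepest single value is that of Psmb6 in KO sample 2.

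All 6 ATPases of the 19S base, the motor that unfolds substrates, were measured, 3 above 0 and 3 below, with a median difference of -0.0015. Psmc1 had values of 9.35, 9.49, 9.10 and 9.19 in KO samples and 9.56, 9.62 and 9.83 in WT samples. Each KO value was lower than each WT value, by a mean of -0.39 (SE 0.16, unadjusted p = 0.0352), but the adjusted p was 0.297. Psmc3 differed in the same direction (-0.29, SE 0.15, adjusted p = 0.416), with values of 9.15, 9.09, 9.21 and 9.41 in KO samples and 9.54, 9.59 and 9.38 in WT samples.

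Psmc4 leaned the other way, with values of 10.88, 10.86, 10.58 and 10.94 in KO samples and 10.43, 10.44 and 10.68 in WT samples. Its difference was 0.30 (SE 0.16, adjusted p = 0.429), and only KO sample 3 and WT sample 3 crossed. Psmc6, at a dim probe, had values of 5.49, 5.66, 5.84 and 5.52 in KO samples and 5.78, 5.31 and 5.03 in WT samples. Its difference was 0.25 (SE 0.20), and with 1 sample left out it ran from 0.08 (without WT sample 3) to 0.46 (without WT sample 1). Psmc2 and Psmc5 differed by 0.03 (SE 0.16) and -0.03 (SE 0.17).

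Of the 11 other structural subunits of the 19S cap, 10 were measured, 3 above 0 and 7 below, with a median of -0.17. Psmd8, a lid subunit that in yeast joins the lid last, had values of 10.60, 10.15, 10.03 and 9.995 in KO samples and 9.49, 9.75 and 9.85 in WT samples. Every KO sample was higher, by a mean of 0.49, or 1.41-fold (SE 0.19, 95% interval 0.08 to 0.90). The unadjusted p of 0.0222 became 0.252 after adjustment. Its other probe was not above background on any array.

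The lid holds the enzyme that cuts the ubiquitin chain off the substrate, Psmd14, in a dimer with Psmd7. Psmd7 differed by 0.28 (SE 0.17, adjusted p = 0.479), with values of 9.59, 9.21, 9.58 and 9.25 in KO samples and 9.05, 9.03 and 9.29 in WT samples. Psmd14 differed by 0.18 (SE 0.18) and at its other probe by 0.36 (SE 0.20, adjusted p = 0.442).

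The subunits that receive ubiquitin or serve as scaffold included Psmd2, which had values of 4.86, 5.33, 5.03 and 5.25 in KO samples and 5.25, 6.09 and 5.37 in WT samples. Both groups were near the background bound of 4.989 log2 units, and WT sample 2 stood alone. The difference was -0.45 (SE 0.22, adjusted p = 0.365), and with 1 sample left out it ran from -0.61 (without WT sample 1) to -0.19 (without WT sample 2). Psmd1, the related scaffold, differed by -0.03 (SE 0.17) and the ubiquitin receptor Psmd4 by -0.17 (SE 0.16).

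Among the lid subunits, Psmd6 had values of 7.21, 7.70, 7.39 and 7.48 in KO samples and 7.63, 8.08 and 7.55 in WT samples. Psmd11 had 7.31, 6.96, 7.37 and 7.37 in KO samples and 7.06, 7.67 and 7.94 in WT samples. Both overlapped, and the differences of Psmd6 (-0.31, SE 0.19), Psmd11 (-0.30, SE 0.22), Psmd12 (-0.23, SE 0.19) and Psmd13 (-0.18, SE 0.15) had adjusted p between 0.481 and 0.634. With 1 sample left out, Psmd6 ran from -0.41 (without WT sample 3) to -0.14 (without WT sample 2) and Psmd11 from -0.55 (without WT sample 1) to -0.11 (without WT sample 3). Psmd12 ran from -0.31 (without KO sample 4) to -0.086 (without KO sample 3), and Psmd13 from -0.22 (without WT sample 3) to -0.11 (without WT sample 2). For Psmd6 and Psmd11 the other measured probe lay above 0, at 0.10 (SE 0.24) and 0.08 (SE 0.16).

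Assembly chaperones help to build the complex and leave it before it is complete. The 3 chaperones of the 19S base all had KO means above WT. The differences were 0.17 (SE 0.16) for Psmd5, at a dim probe, 0.18 (SE 0.17) for Psmd9 and 0.19 (SE 0.18) for Psmd10, which is also called gankyrin. The 3 measured chaperones of the 20S core differed by 0.02 (SE 0.16) for Psmg1, 0.09 (SE 0.16) for its partner Psmg2 and 0.16 (SE 0.22) for Psmg3. None of these 6 passed, with adjusted p between 0.676 and 0.976, and 1 of 2 further probes of Psmg2 and the further probe of Psmd9 lay below 0.

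The activators of the 11S and PA200 families cap the core in place of the 19S complex and open its gate, and all 4 measured genes had KO means below WT. Psme3, the nuclear activator PA28-gamma, had values of 9.05, 8.72, 9.13 and 8.89 in KO samples and 9.15, 9.74 and 9.64 in WT samples. The highest KO value lay just under the lowest WT value. The difference was -0.56, or 1.48-fold lower (SE 0.19, 95% interval -0.97 to -0.15), with an unadjusted p of 0.0112 and an adjusted p of 0.201. It passed in 1 alternative, with arrays weighted by their quality (-0.63, adjusted p = 0.042), and its adjusted p ranged from 0.042 to 0.595 over the alternatives.

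Psme1 and Psme2 form the interferon-inducible activator PA28, which works with the immunoproteasome. Psme1 had values of 9.95, 9.80, 10.27 and 10.06 in KO samples and 10.29, 10.45 and 9.88 in WT samples. The groups overlapped at this probe, with a difference of -0.19 (SE 0.19, adjusted p = 0.698). At its other probe they did not overlap, with 8.15, 8.37, 8.41 and 8.49 in KO samples and 8.98, 9.08 and 8.94 in WT samples. There the difference was -0.65 (SE 0.16), and the adjusted p over 18776 measured probes was 0.105.

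Psme2 lay near the background bound, with 5.11, 5.38, 4.92 and 5.22 in KO samples and 5.06, 5.16 and 5.37 in WT samples, a difference of -0.03 (SE 0.17). Psme4, which encodes PA200, differed by -0.18 (SE 0.18). The testis subunit Psma8 was above the bound in 3 of 4 KO samples and 1 of 3 WT samples (0.17, SE 0.19), and Psme3ip1 differed by -0.02 (SE 0.16).

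**Figure D4:**
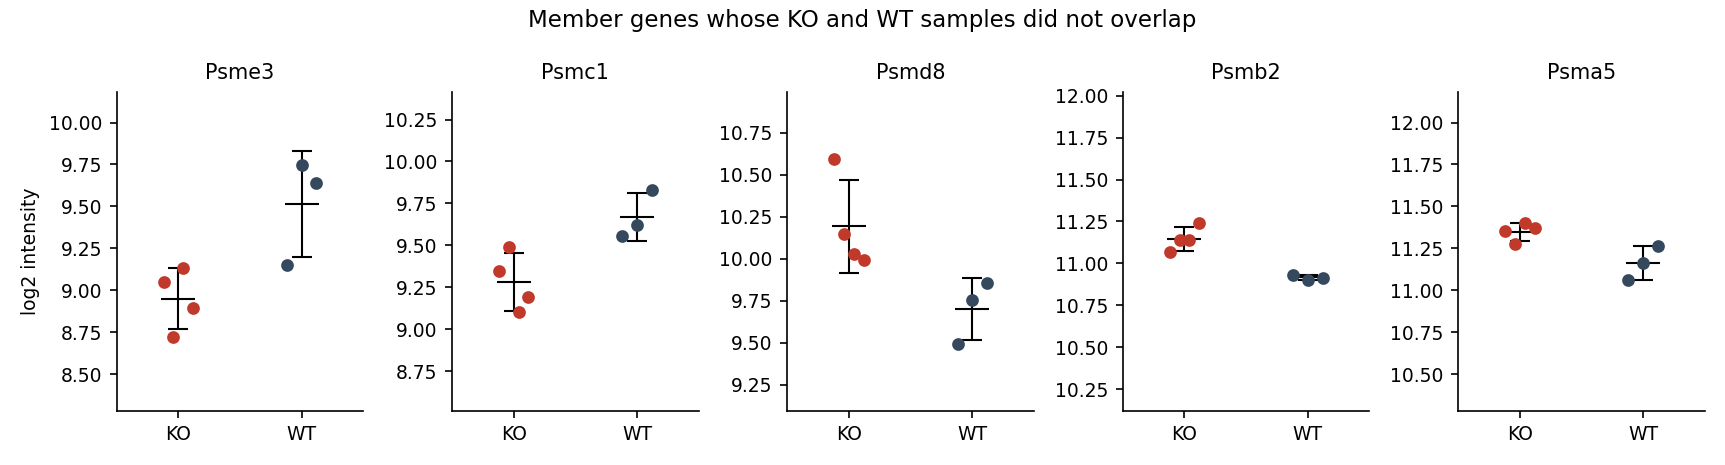
Log2 intensity of the 5 proteasome genes whose KO samples (red, n = 4) and WT samples (dark blue, n = 3) did not overlap, with mean ± SD. Psme3 and Psmc1 were lower in KO samples, Psmd8, Psmb2 and Psma5 higher, and none had an adjusted p under 0.201.

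In the fit over probes, 68 of the 86 member probes were measured and none passed an adjusted p under 0.05, against 0.0639% of all measured probes. At an unadjusted p under 0.05 stood 6 of the 68, against 14.2% of all measured probes, and 6 had groups that did not overlap, against 12.9%. For 20 genes more than 1 probe was measured, and 7 of their 26 further probes had a sign opposite to the brightest one. These were probes of Psmb2, Psmb8, Psmc2, Psmd6, Psmd9, Psmd11 and Psmg2. Every measured probe had the same sign for the other genes, among them Psmb6, Psmb7, Psmb10, Psmd14, Psme1 and Psme4.

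**Figure D5:**
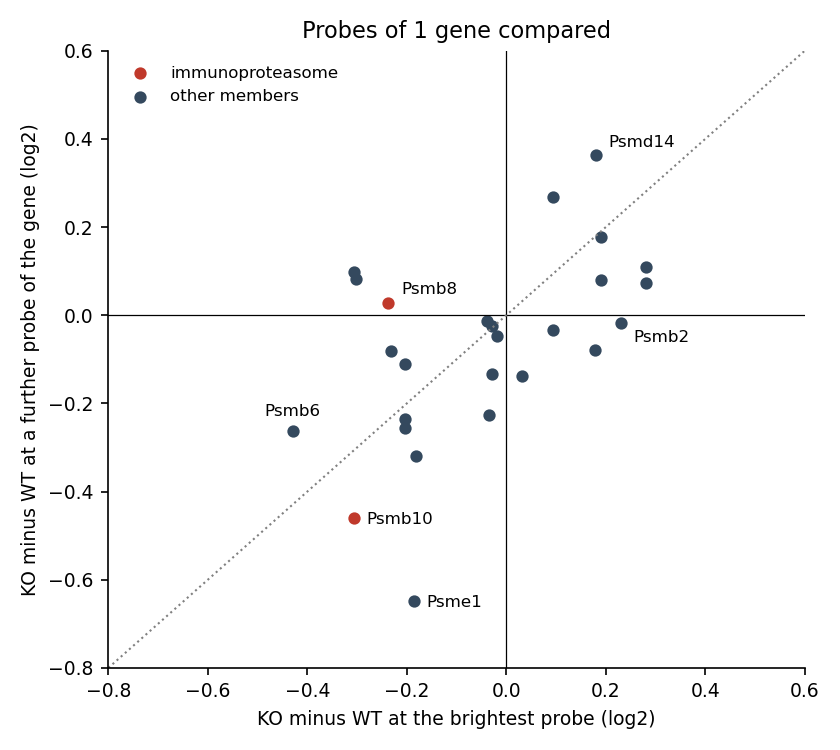
KO minus WT difference at each further measured probe of a gene (vertical axis, log2) against that at its brightest probe (horizontal axis, log2), with equality as a dotted line. Psme1 has the lowest further probe, at -0.65, and 7 of the 26 points lie in quadrants of opposite sign.

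Genes that work with the proteasome or control its genes were read from the same fit. Of 10 partners outside the symbol rule, 5 were measured, and none passed. Pomp, the maturation chaperone of the core, differed by 0.23 (SE 0.20), and the cap deubiquitinases Usp14 and Uchl5 by 0.26 (SE 0.19) and -0.11 (SE 0.18), and the proteasome-bound ubiquitin ligase gene Ube3c by 0.21 (SE 0.16). Uba6, the 1 measured gene of 6 for ubiquitin and its activating enzymes, differed by -0.43 (SE 0.38). None of 7 measured genes of the ubiquitin shuttles and the Vcp segregase passed. The lowest was Nploc4, a Vcp cofactor, with 7.62, 7.76, 7.62 and 7.53 in KO samples and 7.92, 8.26 and 8.05 in WT samples (-0.45, SE 0.16, adjusted p = 0.212). Its groups did not overlap. Nfe2l1, which encodes NRF1, the factor that restores proteasome genes when degradation fails, differed by 0.14 (SE 0.18). Nfe2l2, which encodes NRF2, had values of 7.04, 5.87, 7.28 and 6.73 in KO samples and 6.61, 6.83 and 6.75 in WT samples, a difference of -0.00021 (SE 0.28). Keap1, which marks NRF2 for degradation, had values of 7.40, 7.27, 7.98 and 7.37 in KO samples and 7.05, 7.19 and 7.08 in WT samples (0.40, SE 0.19, adjusted p = 0.363). All KO values exceeded the WT values there, while its further probes differed by 0.32, 0.10 and -0.50.

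Of 14 measured genes of the interferon response, 3 were higher and 1 lower in KO livers at an unadjusted p under 0.05, beside 8.25% higher and 6.52% lower over all features, and none passed after adjustment. Irf1, a transcription factor known to act on the promoter between Psmb9 and Tap1, had values of 7.33, 7.22, 7.51 and 8.09 in KO samples and 6.56, 6.48 and 6.57 in WT samples at its brightest probe (1.0, SE 0.21, adjusted p = 0.0878). Its 3 other probes differed by 0.44, -0.05 and -0.07. The others were the guanosine triphosphatase gene Igtp (0.68, SE 0.23), Irf2 (0.68, SE 0.20) and the interferon gamma receptor chain Ifngr2 (-0.76, SE 0.22), for which 1 of 2 further probes lay above 0. Of 10 measured genes that supply peptides to MHC class I, Calr, a chaperone of the endoplasmic reticulum, was the 1 gene lower at an unadjusted p under 0.05 (-1.15, SE 0.25, adjusted p = 0.0981). The MHC class I heavy chain gene H2-K1 (0.16, SE 0.20) and Nlrc5, the transactivator of MHC class I genes (0.58, SE 0.32), did not pass.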

How the data were processed

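The deposited table held 1 linear intensity per probe and array, and the quantiles of its 7 columns coincided, so the values had already been normalized by the authors. The submitters' processing notes name Partek. A scanner table was not used, because its 14 columns carry no label of a sample. In R 4.3.3, limma 3.58.1 corrected the deposited intensities for background (normexp, saddle-point, offset 16), after which log2 was taken. The background bound, 93.56, was the 0.95 quantile of a normal curve fitted below the most frequent intensity. Probes above it on at least 3 arrays were kept (18776), and the brightest one stood for a gene. Of all probes, 34885 had 1 gene symbol, 18 several and 10378 none. All 49 member symbols matched RefSeq of GRCm38.p6 by Entrez identifier. The KO minus WT contrast was fitted with lmFit and eBayes, two-sided and without covariates, over 13193 genes or unnamed probes, and separately over the kept probes. The procedure was tested on simulated data.

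Every member was accounted for. Values per sample were given for the inducible subunits and their counterparts, Psme1, Psme2 and up to 8 genes of smallest p in each direction. From each further list up to 4 genes of smallest p could be named, with Irf1, Tap1, Nfe2l1 and Nfe2l2. Members and lists were chosen with earlier results of these data known. Alternatives changed the background correction, normalization, filter, probe choice, prior, array weights, threshold and replicate block, and left out samples. A further promoter motif is not reported here.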

Additional observations from a re-analysis of the deposited data

Results flagged for a closer look

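In the KO group, 4 of the 42 measured proteasome genes had 1 sample far from the other KO samples by Dixon's criterion, which chance meets in about 1 of 20 groups. KO sample 3 was low for Psma2 (log2 intensity 11.15, against 11.54 to 11.57 in the other KO samples), Psma7 (9.57, against 9.96 to 10.04) and Psmb7 (10.24, against 10.62 to 10.70). KO sample 2 was low for Psmd11 (6.96, against 7.31 to 7.37). The 3 WT samples were too few for this criterion. It was applied to the 42 proteasome genes only, so the share of all features that meet it is not known here.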

How the results depend on the processing

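Of 18 alternatives, all but array weights left no proteasome gene past the threshold. Array weights gave 1, Psme3, with 955 features called in all against 9. Features called numbered 4 without background correction, 6 with offset 50, 19 without the filter, 1 with probes above the bound on all arrays, 3 with the mean of probes, 2 with a trended robust prior, 81 at an adjusted p under 0.1, 2 to 5 with 1 sample left out, and 569 without replicate 3 of both groups. The median of the constitutive genes was 0.01 to 0.05 with 1 sample left out and moved to 0.081 without replicate 3 of both groups, but it lay below 0 without the filter (-0.031, with 38 genes in place of 33) and with the mean of probes (-0.025). That of the 3 immunoproteasome genes stayed between -0.32 and -0.10 over all 18. Its main value (-0.24) and both ends of that range were those of the Psmb8 probe. Psmb8 and Psmb10 kept their direction, while Psmb9 changed sign in 4 alternatives. Directions were kept in every alternative by 31 of the 42 genes. Signs turned with array weights for Psma4 (0.10), Psma7 (0.076), Psme2 (0.0082), Psmc2 (-0.076) and Psme3ip1 (0.080). They turned without replicate 3 of both groups for Psmb5 (0.081), Psme4 (0.0067), Psma4 (0.22), Psma7 (0.17), Psme2 (0.13), Psmc2 (-0.14) and Psme3ip1 (0.015). They also turned for Psmc2 with the mean of probes (-0.053) and for Nfe2l2 without background correction (0.022) and with offset 50 (0.018). Irf1 passed in 3 of the 18, with array weights (0.96), at an adjusted p under 0.1 and without replicate 3 of both groups (1.03). With the mean of probes its difference was 0.33 (adjusted p = 0.358), and its adjusted p reached 0.382 over the alternatives. With 1 sample left out the ranges were -0.19 to 0.11 for Psma4, -0.097 to 0.071 for Psma7, -0.14 to 0.034 for Psmc5, -0.11 to 0.053 for Psme2, -0.087 to 0.10 for Psmc2, -0.14 to 0.033 for Psmd1, -0.12 to 0.040 for Psme3ip1, -0.11 to 0.16 for Psmb9, -0.095 to 0.12 for Psmg1 and -0.18 to 0.29 for Nfe2l2. The replicate block called 0 proteasome genes and 3 features, and turned Psme3ip1 (0.036), Psmb9 (-0.082) and Nfe2l2 (0.00038). Same-numbered KO and WT samples deviated from their group means with correlations of -0.20, -0.04 and -0.30. Deviations within a group sum to 0, and only 3 pairs exist, so these values cannot settle whether the numbers pair samples. The causes were not tested. Signal over background limits Psmd2, Psme2, Psma8, Psmc6, Psmb8 and Psmd5, and also Tap1. Without background correction Psmd5 differed by 0.07 and Tap1 by -0.13.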
